A study of Mus musculus with 12 samples.

Results

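The nuclear genes of oxidative phosphorylation were described across 3 groups of injured mouse spinal cord. They were chosen by symbol alone: protein-coding genes whose names begin with Nduf, Uqcr, Cox4 to Cox8 or Atp5, and the 4 genes Sdha, Sdhb, Sdhc and Sdhd. The rule found 98 of the 57180 genes in the deposited tables, and 92 of them passed the filter on low counts. By role, 7 encode core subunits of complex I, 31 its accessory subunits and 8 its assembly factors, 4 encode complex II, 8 complex III, 21 complex IV and 19 complex V. The 6 entries that did not pass the filter were Ndufb11b, Cox5b-ps, Cox7b2, Cox8b, Cox8c and a second identifier named Atp5po.

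All libraries came from female C57BL/6J wild-type mice, labelled 8 weeks of age, with a clip-compression injury at T9-T10, and the cord around the lesion was taken 7 days after it. The SCI7 group had the injury alone, the OVX2_SCI7 group had the ovaries removed 2 weeks before the injury, and the OVX8_SCI7 group 8 weeks before it. Each group holds 4 libraries labelled as biological replicates. The age label is the same in every group, and whether it stands for age at ovariectomy, injury or collection is not given. The groups may therefore differ in age at injury. The design has no uninjured cord and no sham surgery among the samples analysed here. The surgery, the loss of ovarian hormones, the time between the operations and any difference in age cannot be told apart. The series title speaks of osteoporosis associated with ovariectomy.

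Oxidative phosphorylation makes most of the ATP of neurons and glia. Complexes I and II pass electrons from NADH and succinate to ubiquinone, complex III passes them on to cytochrome c, and complex IV passes them to oxygen. Complexes I, III and IV pump protons across the inner mitochondrial membrane, and complex V, the ATP synthase, uses their return to make ATP. Most subunits are encoded in the nucleus and imported, while a small set in complexes I, III, IV and V is encoded by mitochondrial DNA. Complex II is wholly nuclear.

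The libraries held 18222729 to 31781695 counts. Markers of the labelled tissue were present in every library, with summed levels over all libraries of 1484 to 5843 CPM (counts scaled by TMM-adjusted library size) for 7 neuronal genes, 13598 to 32993 CPM for 6 oligodendrocyte genes and 5791 to 13364 CPM for 6 astrocyte genes. Libraries differed in how counts followed the GC content of transcripts. Across protein-coding genes, the rank correlation of GC content with a library's log level relative to the mean of the libraries was -0.77 to -0.46 in SCI7 and 0.14 to 0.81 in OVX8_SCI7. It was -0.39 in OVX2_SCI7 replicate 1 and 0.35 to 0.50 in the other OVX2_SCI7 libraries. Mitochondrial transcripts took 5.35 to 9.35% of the counts in SCI7, 8.33% in OVX2_SCI7 replicate 1, 2.36 to 3.13% in the other OVX2_SCI7 libraries and 2.2 to 3.36% in OVX8_SCI7. OVX2_SCI7 replicate 1 lay closer to SCI7 than to its own group on both measures.

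The members were abundant. Their TPM, a level scaled by transcript length so that genes can be compared, had a median of 183 over the 92 tested, and 72 of them exceeded 100 TPM on average. The highest was Atp5f1b, the catalytic beta subunit of ATP synthase, at 903 TPM. Cox4i1 followed at 753 TPM, Cox8a at 647 TPM and Cox6a1 at 606 TPM, all nuclear subunits of complex IV. The assembly factors of complex I were among the least abundant members: the highest, Ndufaf2, reached 45.5 TPM, and among the tested subunits of the complex Ndufb4 alone, at 25.2 TPM, lay below it. Ndufb4 was singled out here after its values were seen.

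With ovariectomy 8 weeks before injury, a minority of the members differed from injury alone, in both directions. In OVX8_SCI7 against SCI7, 12 of the 92 tested members were higher and 3 were lower (edgeR quasi-likelihood test, Benjamini-Hochberg adjusted over 17820 genes, adjusted p 0.0149 to 0.0491). Over all genes tested 11.9% were called higher and 15.6% lower, and the members' shares were 13.04% and 3.26%, so the share called higher was near the background. Among the higher members were Ndufs7 and Ndufs8 of the complex I core, its accessory subunits Ndufb4, Ndufb7, Ndufb8 and Ndufb10, its assembly factor Ndufaf3, Uqcrc1 of complex III, Cox6a1 and Cox6a2 of complex IV, and Atp5f1d of complex V. The lower ones were Ndufv2 of the complex I core, the assembly factor Ndufaf4 and Atp5pb of complex V. No member of complex II was called. The median log2 difference of the 92 members was 0.25, with 67 above 0 and 25 below, against a median of 0.015 over all genes tested.

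**Figure D1:**
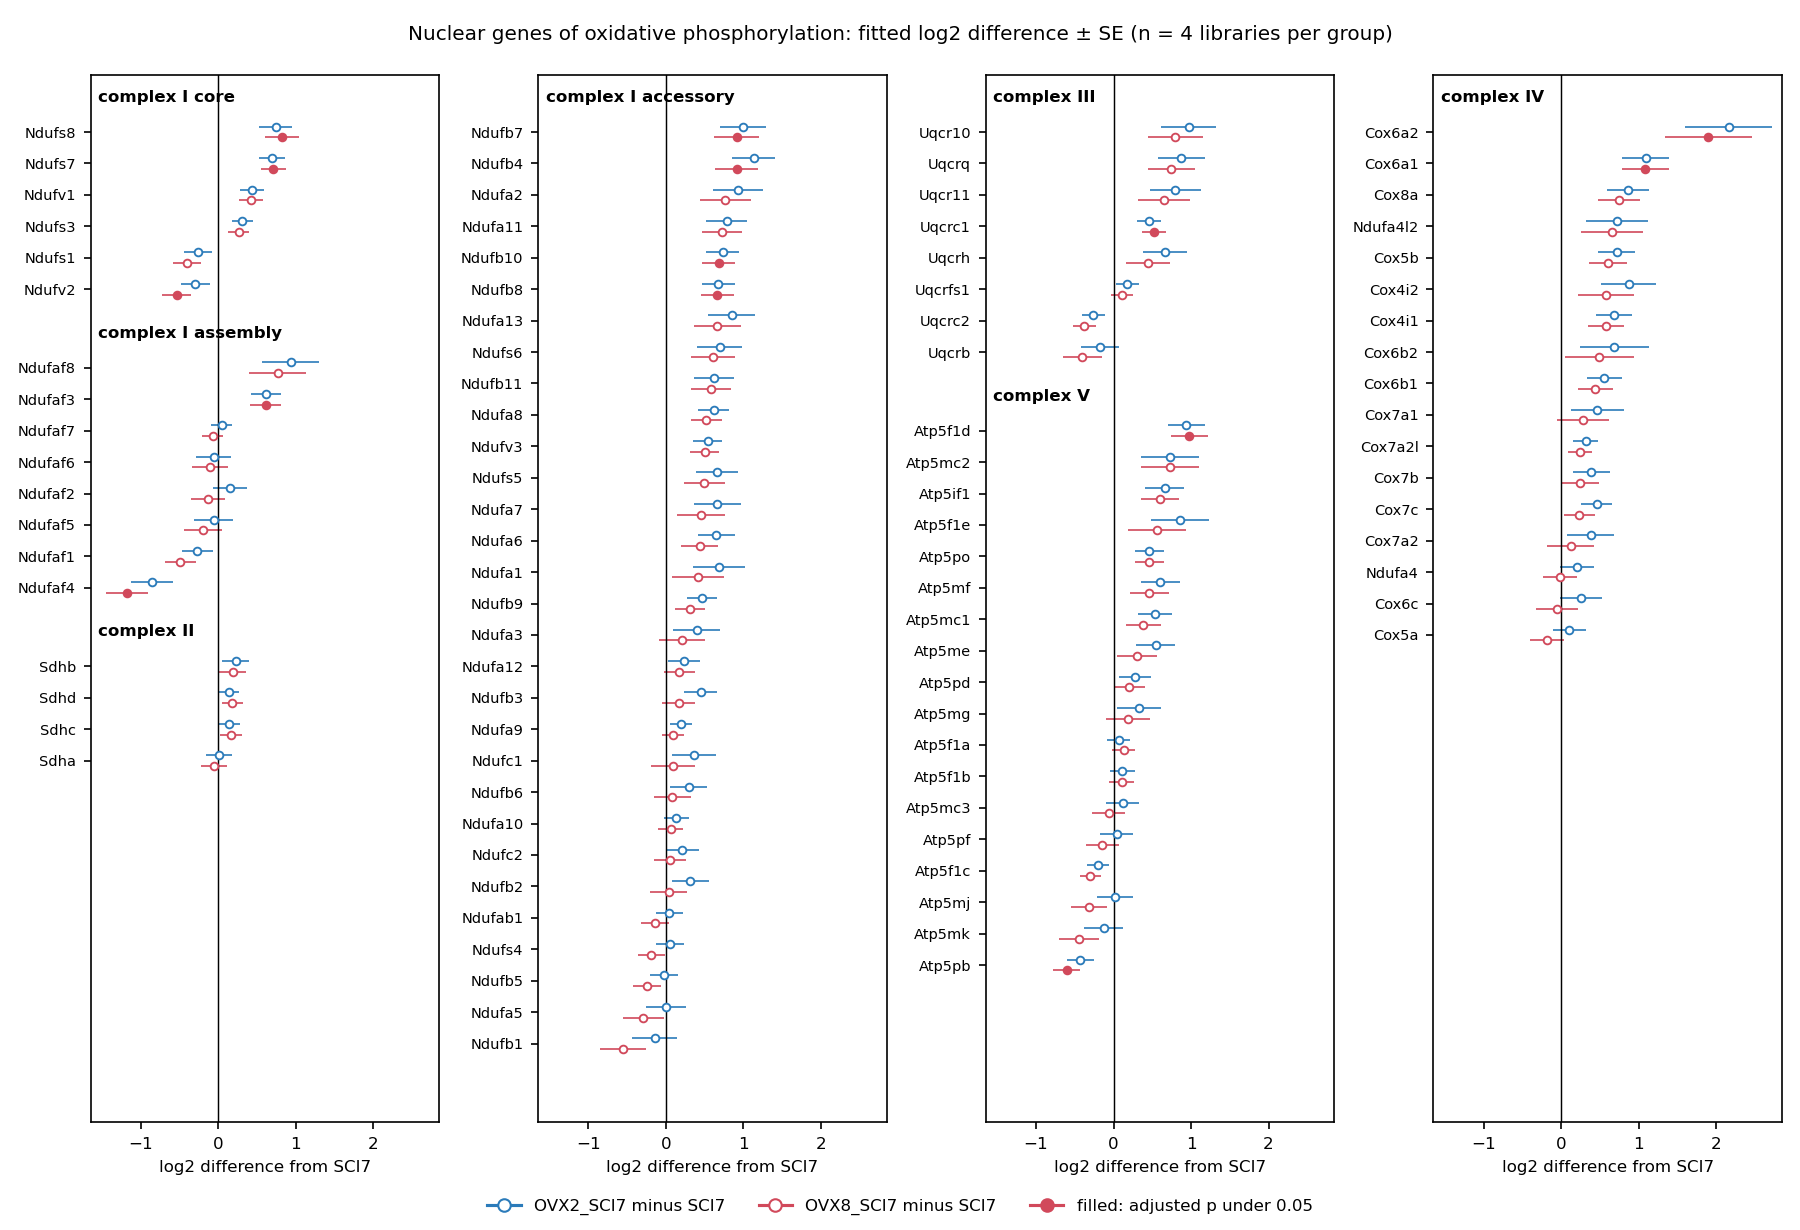
Fitted log2 difference from SCI7 (horizontal axis) with its standard error for 91 of the 92 tested members, grouped by complex, with OVX2_SCI7 in blue and OVX8_SCI7 in red (4 libraries a group). Filled points passed an adjusted p of 0.05: of those drawn, 14 do in OVX8_SCI7 and 0 in OVX2_SCI7, and most open points of both colours lie to the right of 0.

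These 15 calls depended on single libraries and went with base composition. Without OVX8_SCI7 replicate 2 none of the 15 passed (0.0% of all genes), 4 passed without OVX8_SCI7 replicate 1 (5.53% of all genes higher and 8.47% lower), 2 without replicate 3 (2.42 and 4.28%) and 14 without replicate 4 (11.6 and 14.0%). Without SCI7 replicate 2 Ndufaf4 alone passed (2.77% of all genes higher and 6.32% lower), 5 passed without SCI7 replicate 1 (4.47 and 8.47%), 5 without replicate 3 (5.59 and 10.6%) and 7 without replicate 4 (11.4 and 15.4%). The share of all genes called fell in the same fits in which few of the 15 passed, except without SCI7 replicate 4, where it stayed near that with every library. The 12 higher members had transcripts of 52.2 to 61.1% GC and the 3 lower ones 42.3 to 44.6%. Once GC content and length of the transcripts were entered as an offset in the fit, 0 members passed (0.0% of all genes in either direction). The offset was estimated from these same libraries, and their trend with GC content was negative in all of SCI7 and positive in all of OVX8_SCI7. It therefore takes out any group difference that goes with GC content, whatever its source, and the source was not tested. In tissue as a whole, fewer cells of a type and less RNA per cell cannot be told apart.

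Complex I oxidises NADH. Its core subunits encoded in the nucleus sit in the arm that reaches into the matrix. There Ndufv1 and Ndufv2 take electrons from NADH, and Ndufs8 and Ndufs7 hand them towards ubiquinone. Ndufs7, an iron-sulfur subunit next to the ubiquinone site, had 30.5, 23.9, 30.0 and 26.9 CPM in the SCI7 libraries. It had 35.6, 46.8, 45.3 and 52.4 CPM in OVX2_SCI7 and 52.0, 49.3, 46.9 and 33.9 CPM in OVX8_SCI7. Every library after ovariectomy was above every SCI7 library. The log2 difference was 0.71 ± 0.17 (SE, adjusted p = 0.0152) in OVX8_SCI7 and 0.69 ± 0.17 (SE, adjusted p = 0.052) in OVX2_SCI7, 2 comparisons that share the SCI7 libraries, and with the offset the former was -0.088.

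Ndufs8, another iron-sulfur subunit, had 31.7, 23.1, 26.3 and 27.3 CPM in SCI7, 29.1, 44.8, 50.7 and 56.5 CPM in OVX2_SCI7 and 59.3, 51.0, 47.2 and 34.3 CPM in OVX8_SCI7. The OVX8_SCI7 libraries all lay above SCI7, whereas OVX2_SCI7 replicate 1 lay within its range. Its log2 difference in OVX8_SCI7 was 0.82 ± 0.22 (SE, adjusted p = 0.0205).

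The pair that oxidises NADH had differences of opposite sign. Ndufv2, an iron-sulfur subunit, had 126, 95.7, 107 and 79.5 CPM in SCI7, 109.8, 71.3, 67.0 and 83.5 CPM in OVX2_SCI7 and 82.1, 67.1, 69.5 and 62.0 CPM in OVX8_SCI7. The OVX8_SCI7 libraries were low, but replicate 1 overlapped the lowest SCI7 library, and the log2 difference was -0.54 ± 0.19 (SE, adjusted p = 0.0491). Its partner Ndufv1, which binds NADH and was singled out after its values were seen, had 81.3, 61.9, 83.1 and 66.1 CPM in SCI7 and 106, 105, 102 and 79.6 CPM in OVX8_SCI7. Its groups overlapped, and its log2 difference of 0.43 ± 0.16 (SE, adjusted p = 0.0583) did not pass. The difference between the changes of the 2 genes was not tested. With the offset both were below 0, at -0.075 for Ndufv2 and -0.18 for Ndufv1.

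The accessory subunits surround this core. Of the 30 tested, 4 were higher in OVX8_SCI7, or 13.3%, near the 11.9% of all genes, and 0 were lower. Of the 30 fitted differences 25 were above 0, with a median of 0.36 against 0.015 over all genes tested. Ndufb7, a subunit of the membrane arm, had 24.9, 22.6, 22.5 and 25.3 CPM in SCI7, 25.1, 38.4, 60.6 and 65.8 CPM in OVX2_SCI7 and 63.7, 45.7, 40.1 and 30.0 CPM in OVX8_SCI7. The OVX8_SCI7 libraries were all above SCI7, and OVX2_SCI7 replicate 1 fell inside the SCI7 range. Its log2 difference in OVX8_SCI7 was 0.91 ± 0.29 (SE, adjusted p = 0.037).

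Ndufb8, the most abundant accessory subunit at 269.8 TPM, had 51.4 ± 7.20 CPM in SCI7 and 81.3 ± 22.8 CPM in OVX8_SCI7 (SD, n = 4), with OVX8_SCI7 replicate 4 inside the SCI7 range. Its log2 difference was 0.66 ± 0.21 (SE, adjusted p = 0.0382). Ndufb10, also a membrane-arm subunit and named after its values were seen, had 38.8 ± 5.08 CPM in SCI7 and 62.1 ± 17.9 CPM in OVX8_SCI7 (SD, n = 4). Here too OVX8_SCI7 replicate 4, at 41.4 CPM, lay inside the SCI7 range, and the log2 difference was 0.68 ± 0.22 (SE, adjusted p = 0.0368). Ndufb4, of the same arm, had 6.07, 5.74, 5.34 and 6.05 CPM in SCI7, 9.11, 8.53, 16.5 and 16.7 CPM in OVX2_SCI7 and 15.7, 11.7, 8.48 and 7.77 CPM in OVX8_SCI7. Both ovariectomy groups lay above SCI7 in CPM. The log2 difference of Ndufb4 was 0.91 ± 0.28 (SE, adjusted p = 0.0329) in OVX8_SCI7, and in tests on log2 TPM or FPKM it did not pass there. In OVX2_SCI7 it was 1.13 ± 0.28 (SE, adjusted p = 0.052), the largest among the accessory subunits in that group. Many short respiratory genes have near-identical processed copies in the genome, and how reads were divided among such copies is uncertain for any of them.

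The assembly factors build complex I and do not stay in it. Ndufaf3 and Ndufaf4 act together in this process, and their transcripts changed in opposite directions. Ndufaf4 had 35.8, 29.9, 38.1 and 20.3 CPM in SCI7, 28.3, 13.7, 12.05 and 14.7 CPM in OVX2_SCI7 and 15.2, 13.2, 13.3 and 13.2 CPM in OVX8_SCI7. The OVX8_SCI7 libraries were close to each other and all below SCI7, and OVX2_SCI7 replicate 1 alone in its group lay within the SCI7 range. Among the 3 called falls this was the largest, -1.18 ± 0.27 (SE, adjusted p = 0.0149) on the log2 scale, and it was -0.52 (adjusted p = 0.234) with the offset.

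Ndufaf3 had 8.97, 7.46, 8.11 and 7.92 CPM in SCI7, 9.85, 14.2, 12.2 and 13.4 CPM in OVX2_SCI7 and 15.8, 13.3, 11.8 and 8.52 CPM in OVX8_SCI7. The last value overlapped SCI7, and the log2 difference was 0.61 ± 0.20 (SE, adjusted p = 0.0387). In tests on log2 TPM Ndufaf3 did not pass, and on log2 FPKM it did. The other 6 assembly factors of the set did not pass. Among them Ndufaf2 had 11.6 ± 2.27 CPM in SCI7 and 10.5 ± 2.79 CPM in OVX8_SCI7 (SD, n = 4).

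Complex II, succinate dehydrogenase, belongs both to the respiratory chain and to the citrate cycle. None of its 4 genes passed in any comparison, and the smallest adjusted p in OVX8_SCI7 was 0.324. Sdha, the catalytic flavoprotein, had 371, 311, 388 and 279 CPM in SCI7, 418, 349.9, 261 and 328 CPM in OVX2_SCI7 and 339, 327, 340.0 and 292 CPM in OVX8_SCI7, and the 3 groups overlapped. Sdhb, its iron-sulfur subunit, had 70.8 ± 8.62, 82.6 ± 11.9 and 80.6 ± 18.9 CPM in the 3 groups (SD, n = 4 each). The membrane anchors gave 102 ± 15.2, 112 ± 14.1 and 115 ± 8.34 CPM for Sdhc and 58.4 ± 7.67, 64.1 ± 7.04 and 66.1 ± 6.72 CPM for Sdhd. The fitted log2 differences of the 4 genes in OVX8_SCI7 ran from -0.055 to 0.19.

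Complex III passes electrons from ubiquinol to cytochrome c. Of its 8 genes, Uqcrc1 was called. This core protein had 153, 121, 140.2 and 132 CPM in SCI7, 161, 217, 171 and 200.4 CPM in OVX2_SCI7 and 212, 211, 209 and 153 CPM in OVX8_SCI7. Replicates 1 to 3 of OVX8_SCI7 lay close together above SCI7 and replicate 4 overlapped it, and the log2 difference was 0.52 ± 0.16 (SE, adjusted p = 0.03). In tests on log2 TPM Uqcrc1 did not pass, and on log2 FPKM it did. The other core protein, Uqcrc2, named after its values were seen, had 162 ± 18.9 CPM in SCI7 and 125 ± 6.04 CPM in OVX8_SCI7 (SD, n = 4), and it did not pass (adjusted p = 0.0717). Uqcrh, the hinge protein and the most abundant of the complex at 368 TPM, had 49.5 ± 9.70 and 67.5 ± 24.9 CPM in these groups and did not pass (adjusted p = 0.243).

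Complex IV reduces oxygen, and several of its nuclear subunits have a widely expressed form and a form bound to one tissue. Cox6a1, the widely expressed form, had 75.2, 58.6, 61.0 and 65.2 CPM in SCI7, 72.9, 124, 160.0 and 197 CPM in OVX2_SCI7 and 191, 155, 127 and 79.7 CPM in OVX8_SCI7. All OVX8_SCI7 libraries were above SCI7, replicate 4 by little, and OVX2_SCI7 replicate 1 lay within the SCI7 range. The mean in OVX8_SCI7 was 2.13 times that of SCI7, with a log2 difference of 1.09 ± 0.30 (SE, adjusted p = 0.0245), and of 0.42 (adjusted p = 0.276) with the offset.

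Cox6a2, the heart and skeletal muscle form, was rare. It had 9, 3, 2 and 3 counts in the SCI7 libraries, 8, 16, 18 and 38 in OVX2_SCI7 and 29, 24, 17 and 10 in OVX8_SCI7. Every OVX8_SCI7 library was above SCI7, and the log2 difference was 1.90 ± 0.56 (SE, adjusted p = 0.0299), or 1.67 (adjusted p = 0.146) with the offset. Of 12 listed skeletal muscle genes, 4 were higher in OVX8_SCI7 (Myh4, Tnni2, Actn3 and Atp2a1), or 33.3% against 11.9% of all genes. In OVX2_SCI7 0 were higher, where 0.0% of all genes were. The summed level of the 12 was 12.2, 17.1, 20.3 and 6.00 CPM in SCI7, 3.6, 7.88, 27.2 and 20.9 CPM in OVX2_SCI7 and 94.4, 9.09, 56.4 and 73.1 CPM in OVX8_SCI7. The OVX8_SCI7 library with the lowest muscle sum, replicate 2, had 24 counts of Cox6a2. These are not scaled for depth, and replicate 2 held 31781695 counts in all, against 18279508 to 22607666 in the rest of its group. The part of muscle RNA in the result was not tested.

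Among the other isoforms, the widely expressed form was the more abundant one in each pair. Cox4i1 had 519 ± 44.6, 877 ± 186 and 863 ± 187 TPM in SCI7, OVX2_SCI7 and OVX8_SCI7 (SD, n = 4 each), and Cox4i2, described from lung, 3.26 ± 0.536, 6.33 ± 2.00 and 5.49 ± 1.93 TPM. Neither passed the test in counts. Cox8a, the common form, had 374 ± 23.1, 792 ± 262 and 774 ± 226 TPM, and in counts it missed the threshold in OVX8_SCI7 (adjusted p = 0.0564). Cox8b, of heart and muscle, was listed at 1.63 ± 0.373, 2.19 ± 1.46 and 4.31 ± 2.07 TPM, which stands for 1 to 8 counts a library, and Cox8c, of testis, was listed at 0 in all 12.

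Cox7a2 had 38.2 ± 3.92, 49.8 ± 17.2 and 41.6 ± 19.1 CPM in the 3 groups and Cox7a1, the muscle form, 1.52 ± 0.375, 2.11 ± 1.08 and 1.86 ± 0.323 CPM (SD, n = 4 each). Cox7a2l had 109 ± 11.1, 136 ± 29.9 and 129 ± 11.1 CPM. Cox6b1 had 60.6 ± 8.25, 89.0 ± 23.2 and 82.2 ± 24.0 CPM and its testis form Cox6b2 2.49 ± 0.888, 4.01 ± 2.48 and 3.51 ± 0.508 CPM. Cox7b had 59.0 ± 9.81, 77.4 ± 20.4 and 69.9 ± 23.2 CPM, and its testis form Cox7b2 held 0 to 4 counts a library. None of those tested passed.

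Ndufa4 was long counted with complex I and is now placed in complex IV. It had 85.6 ± 19.1, 98.6 ± 13.4 and 84.7 ± 25.2 CPM (SD, n = 4 each), and its relative Ndufa4l2, known from hypoxia, 3.62 ± 1.38, 6.00 ± 3.39 and 5.70 ± 1.24 CPM. Neither passed the test.

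**Figure D2:**
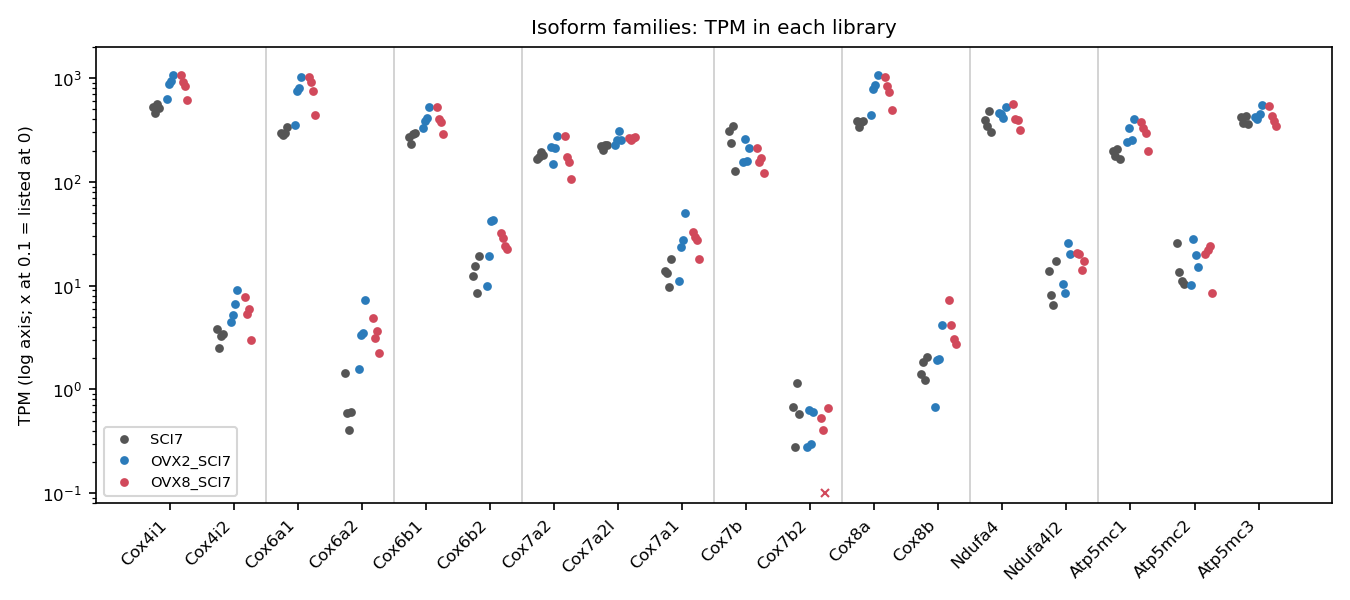
TPM in each library (vertical log axis) for the members of 8 isoform families, separated by grey lines, with SCI7 in grey, OVX2_SCI7 in blue and OVX8_SCI7 in red. Tissue-bound forms such as Cox6a2 and Cox8b lie far below the widely expressed Cox6a1 and Cox8a in all libraries, a cross marks a library listed at 0, and Cox8c, at 0 in all, is not drawn.

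Complex V makes ATP. Atp5f1d, the delta subunit of its central stalk, had 71.5, 52.6, 58.8 and 59.4 CPM in SCI7, 67.9, 115, 139.8 and 141 CPM in OVX2_SCI7 and 147, 136, 112 and 83.1 CPM in OVX8_SCI7. The OVX8_SCI7 libraries were all above SCI7, and the log2 difference of 0.98 ± 0.24 (SE, adjusted p = 0.0168) was 0.13 with the offset. Atp5pb, subunit b of the peripheral stalk, went the other way, with 286, 218, 225 and 197 CPM in SCI7, 222, 152, 144 and 170.1 CPM in OVX2_SCI7 and 172, 142, 146 and 149 CPM in OVX8_SCI7. All OVX8_SCI7 libraries were below SCI7, with a log2 difference of -0.60 ± 0.17 (SE, adjusted p = 0.0254) and of -0.17 with the offset.

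The catalytic subunit Atp5f1b had 750.3 ± 72.3, 813 ± 110.1 and 808 ± 76.1 CPM and did not pass (SD, n = 4 each). The 3 genes of the membrane ring, whose mature proteins are the same, were Atp5mc1 with 61.8 ± 11.3, 89.6 ± 20.5 and 80.6 ± 22.9 CPM, Atp5mc2 with 3.06 ± 1.18, 5.08 ± 1.74 and 5.04 ± 1.90 CPM and Atp5mc3 with 121 ± 22.5, 131 ± 28.6 and 116 ± 29.5 CPM. None passed. Atp5if1, which inhibits the enzyme's reverse reaction, had 39.0 ± 4.08 CPM in SCI7 and 59.1 ± 19.3 CPM in OVX8_SCI7. Its groups did not overlap, yet it did not pass (adjusted p = 0.0884).

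**Figure D3:**
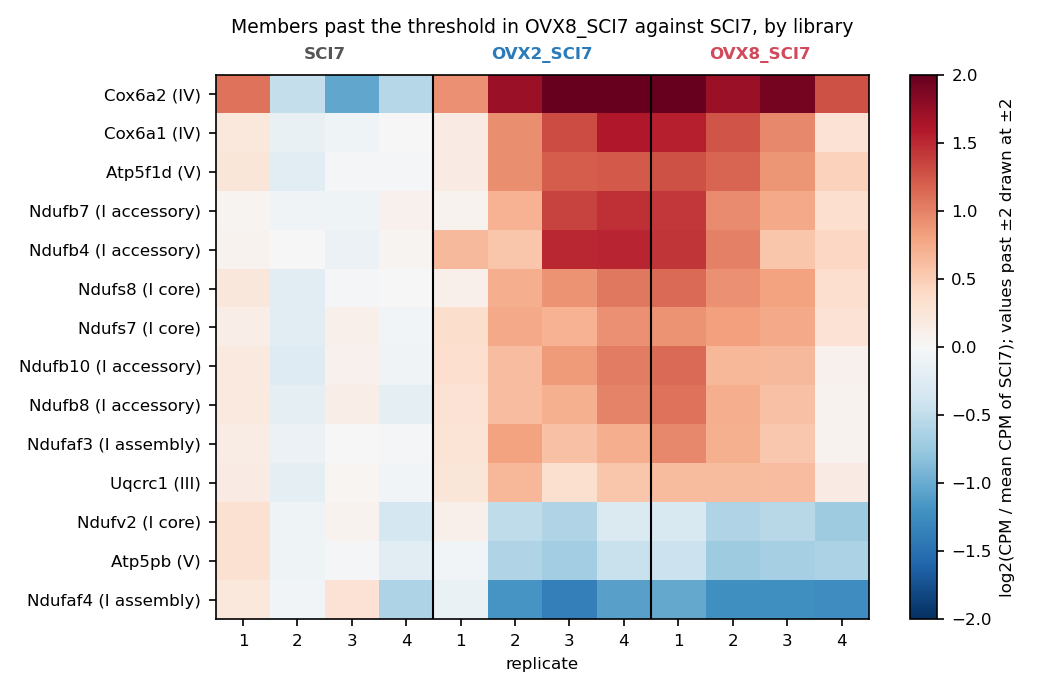
Log2 of CPM over the SCI7 mean (colour) for 14 of the 15 members called in OVX8_SCI7 against SCI7 (rows) in the 12 libraries (columns). OVX2_SCI7 replicate 1 and OVX8_SCI7 replicate 4 are paler than the rest of their groups in most of the 11 upper rows.

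Within a group, the same libraries were high or low in most members. OVX8_SCI7 replicate 1 had the highest CPM of its group in 86 of the 92 tested members and replicate 4 the lowest in 79. In OVX2_SCI7, replicate 4 was highest in 65, and in SCI7, replicate 1 was highest in 80. Of the 12 members called higher, replicate 4 of OVX8_SCI7 was lowest in all 12 and replicate 1 of OVX2_SCI7 lowest in 11. OVX8_SCI7 and SCI7 did not overlap in 10 members that were higher and 6 that were lower, 10.9 and 6.52% of those tested, against 19.6% in each direction over all genes tested.

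With ovariectomy 2 weeks before injury, no member passed the test. In OVX2_SCI7 against SCI7, edgeR called 0 of the 92 (0.0% of all genes tested), with a smallest adjusted p of 0.052. An unadjusted p under 0.05 was found in 43 of the 92 members and in 5787 of all 17820 genes tested. The fitted difference was above 0 in 79 members and the median was 0.42, against 0.038 over all genes. DESeq2 called 23 members higher and 1 lower, with 5.87 and 4.88% of all genes called, and limma-voom 1 and 0, with 1.6 and 3.41%. Without OVX2_SCI7 replicate 1, edgeR called 34 higher and 5 lower, with 17.1 and 17.6% of all genes called. The groups did not overlap in 12 members that were higher (6.13% of all genes tested) and in 0 that were lower (6.29%).

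The fitted differences with ovariectomy 2 weeks before injury were greatest in genes already named. They were 2.16 ± 0.56 (SE, adjusted p = 0.0526) for Cox6a2, 1.13 ± 0.28 (SE, adjusted p = 0.052) for Ndufb4 and 1.09 ± 0.30 (SE, adjusted p = 0.0556) for Cox6a1. The lowest was Ndufaf4 at -0.85 ± 0.27 (SE, adjusted p = 0.066).

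Between the operated groups, 0 members passed in OVX8_SCI7 against OVX2_SCI7 (edgeR, 0.0% of all genes tested), and 0 had an unadjusted p under 0.05 (393 of all 17820 genes). DESeq2 also called 0 (0.006% of all genes higher and 0.003% lower), as did limma-voom (0.0%). The fitted difference was below 0 in 83 of the 92, with a median of -0.15 against -0.032 over all genes tested. The smallest p of their classes here belonged to Ndufb1 with 16.7 ± 5.22 and 12.6 ± 4.02 CPM, Uqcrb with 42.5 ± 13.2 and 36.4 ± 10.8 CPM and Cox5a with 75.4 ± 15.0 and 61.6 ± 15.2 CPM in OVX2_SCI7 and OVX8_SCI7 (SD, n = 4 each). The joint test of the 3 groups called 7 members (14.8% of all genes tested): Ndufs7, Ndufs8, Ndufb4, Ndufaf4, Cox6a1, Cox6a2 and Atp5f1d.

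The coding sequences show the composition that went with the direction. From the middle of the coding sequence of 6 members, 90 bases are printed 5′ to 3′ with G and C in capitals (GENCODE vM21 transcripts, build GRCm38), shown because the members called higher were GC-rich and those called lower GC-poor. Ndufs7 and Atp5f1d were called higher, Ndufv2, Ndufaf4 and Atp5pb were called lower, and Ndufv1 is the partner of Ndufv2.
Ndufs7: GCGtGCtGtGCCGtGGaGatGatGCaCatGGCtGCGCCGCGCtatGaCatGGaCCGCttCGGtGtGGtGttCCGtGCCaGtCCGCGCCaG
Atp5f1d: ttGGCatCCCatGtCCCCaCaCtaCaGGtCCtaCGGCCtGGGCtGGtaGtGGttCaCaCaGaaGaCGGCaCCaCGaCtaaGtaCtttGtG
Ndufv1: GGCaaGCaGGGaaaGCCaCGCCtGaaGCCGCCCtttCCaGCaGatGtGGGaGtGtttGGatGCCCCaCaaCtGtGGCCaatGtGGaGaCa
Ndufv2: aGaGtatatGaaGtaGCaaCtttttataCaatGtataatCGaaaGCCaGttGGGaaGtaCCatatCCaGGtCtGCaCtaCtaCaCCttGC
Ndufaf4: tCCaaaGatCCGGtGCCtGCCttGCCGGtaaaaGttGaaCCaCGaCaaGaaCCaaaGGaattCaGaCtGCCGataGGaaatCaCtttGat
Atp5pb: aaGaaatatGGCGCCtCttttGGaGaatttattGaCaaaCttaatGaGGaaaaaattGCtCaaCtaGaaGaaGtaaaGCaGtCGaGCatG

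In these stretches 59 bases in Ndufs7, 50 bases in Atp5f1d and 53 bases in Ndufv1 are G or C, against 35 in Ndufv2, 42 in Ndufaf4 and 32 in Atp5pb. Over whole coding sequences the third base of a codon, which can often vary without changing the protein, was G or C in 71.9% of the codons of Ndufs7 and 68.5% of those of Atp5f1d. It was so in 59.7% of the codons of Ndufv1 and 39.5% of those of Ndufv2. In the 12 members called higher this share ran from 60.5 to 80.4%, and in the 3 called lower from 39.5 to 49.2%, so the ranges did not meet. All 91 members with a complete coding sequence covered 39.2 to 85.4%.

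Across members, the log2 difference followed composition. Spearman's rho with transcript GC content was 0.74 in OVX8_SCI7 and 0.69 in OVX2_SCI7 over the 92 tested members, and 0.79 and 0.76 over 15087 protein-coding genes, given as descriptions, since all genes share the same 12 libraries. With GC content at the third codon base it was 0.83 in OVX8_SCI7 over the 91 members. The 92 were ranked by GC content and split into 4 bins of 23. In the lowest bin 0 were called higher and 3 lower, with a median log2 difference of -0.14. In the next 0 were called and the median was 0.12, in the third 4 were higher and the median was 0.42, and in the highest 8 were higher and the median was 0.66. Other protein-coding genes within the same 4 ranges of GC content had medians of -0.43, 0.032, 0.33 and 0.64. Of these genes 0.157, 2.91, 14.7 and 37.0% were called higher, and 30.2, 4.08, 0.897 and 0.177% lower. With the offset, the median member difference in OVX8_SCI7 was 0.11, and rho with GC content was -0.23. In that fit 20 of the 92 members had an unadjusted p under 0.05, as did 3020 of all 17820 genes tested. The offset is fitted to remove the trend with GC content in each library, so the loss of the positive rho is no separate result.

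**Figure D4:**
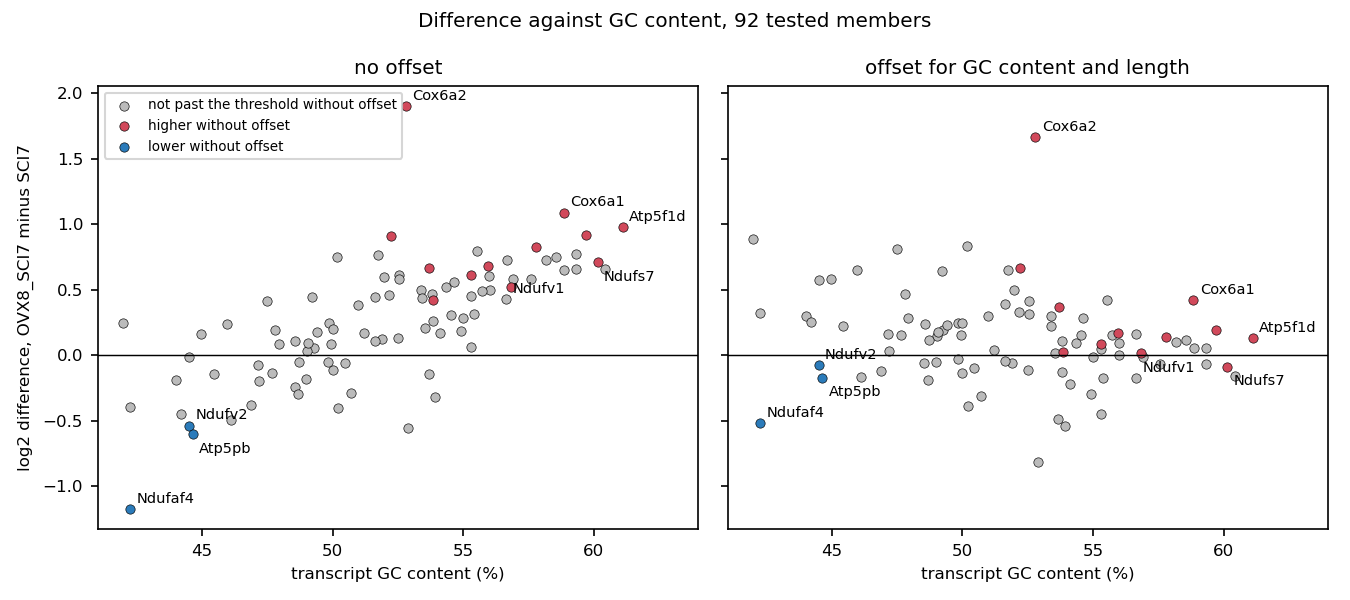
Log2 difference of OVX8_SCI7 from SCI7 (vertical axis) against transcript GC content in percent (horizontal axis) for the 92 tested members, without (left) and with (right) an offset for GC content and length. Red and blue points were called higher and lower without the offset, and rho is 0.74 on the left and -0.23 on the right, where Cox6a2 lies at 1.67.

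The summed level of the members was described on 3 scales, and how far the groups overlapped differed between them. All 98 members together had 16180, 14350, 16576 and 15040.5 TPM in SCI7, 17467, 21379.5, 22135 and 26521 TPM in OVX2_SCI7 and 26585, 21981, 20175 and 15696.5 TPM in OVX8_SCI7. OVX8_SCI7 replicate 4 lay within the SCI7 range and the other 7 libraries after ovariectomy were above it. The means were 1.41 and 1.36 times that of SCI7, and in summed CPM, which does not divide by length, 1.2 and 1.13 times. Summed CPM ran from 5592 to 7231 in SCI7, 6834 to 8607 in OVX2_SCI7 and 5677 to 8659 in OVX8_SCI7, and 5 of the 8 libraries after ovariectomy lay within the SCI7 range. In TPM rescaled to nuclear protein-coding genes the means were 1.25 and 1.15 times that of SCI7, with OVX8_SCI7 replicate 3 within the SCI7 range and replicate 4 below it. Among the classes, complex IV had the largest ratio in CPM, 1.45 in OVX2_SCI7 and 1.32 in OVX8_SCI7, and the accessory subunits of complex I had 1.35 and 1.22. The sum of complex II had 1.05 and 1.03, and that of the complex I assembly factors 0.927 and 0.821. In TPM rescaled to nuclear protein-coding genes the ratios were 1.35 and 1.23 for complex IV and 0.89 and 0.85 for complex II. On that scale the complex II sum was 807 to 969 in SCI7 and 734 to 783 in OVX8_SCI7, without overlap, so its ratio depended on the scale.

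**Figure D5:**
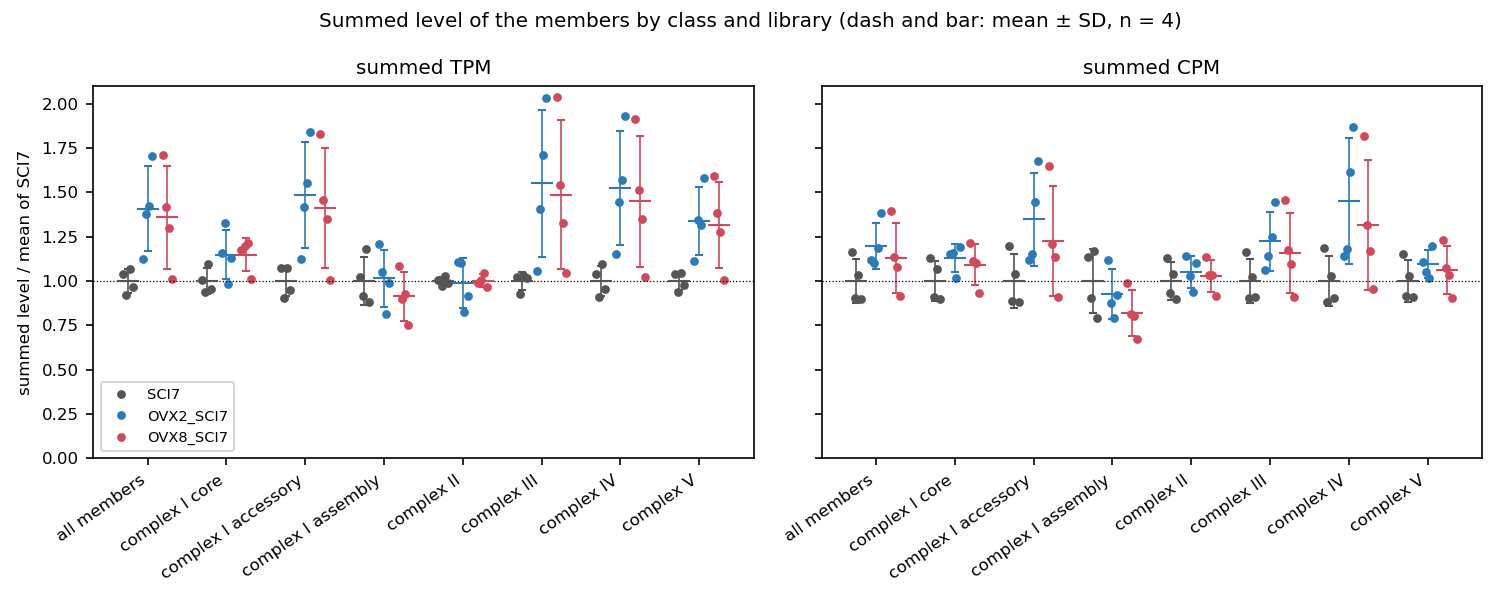
Summed level of the members of each class in each library, divided by the SCI7 mean (vertical axis), in TPM (left) and CPM (right), with SCI7 in grey, OVX2_SCI7 in blue and OVX8_SCI7 in red; dashes and bars are the mean and SD of 4 libraries. The mean of complex II stays near 1 on both scales drawn, while for complex V the ratio in OVX8_SCI7 is 1.31 in TPM and 1.06 in CPM.

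The effective length behind the TPM was compared between groups in the shortest members. The ratio of count to TPM gives the effective length behind the deposited TPM, scaled here to the median protein-coding gene of the library. Over the 33 members with transcripts under 600 bases, the median of this relative length was 0.144, 0.140, 0.142 and 0.133 in SCI7. It was 0.130, 0.114, 0.105 and 0.102 in OVX2_SCI7 and 0.102, 0.106, 0.114 and 0.122 in OVX8_SCI7, below SCI7 in every library. Over the 24 members of 1000 bases or more it was 0.441 ± 0.0111, 0.434 ± 0.000793 and 0.439 ± 0.0116 in the 3 groups (SD, n = 4 each). The group means moved in opposite directions in TPM and in CPM in 12 of the 92 members in OVX8_SCI7.

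Atp5mj and Atp5mk, small subunits of ATP synthase, are examples, and Atp5mk was picked after its values were seen. Atp5mj had 394 ± 7.33 TPM in SCI7 and 560.1 ± 168 TPM in OVX8_SCI7, but 37.3 ± 6.96 and 30.0 ± 7.95 CPM (SD, n = 4), with a log2 difference of -0.32 ± 0.23 (SE, adjusted p = 0.312). Atp5mk had 428 ± 32.5 and 584 ± 219.6 TPM, but 41.4 ± 9.26 and 30.3 ± 10.2 CPM, with a log2 difference of -0.45 ± 0.26 (SE, adjusted p = 0.195). Neither passed the test on counts.

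Most of the 13 subunits encoded by mitochondrial DNA, which pair with the nuclear ones, were lower. In OVX8_SCI7 11 of the 13 were called lower, all but mt-Co2 and mt-Co3, or 84.6% against 15.6% of all genes. The median log2 difference over the 13 was -1.60. Their summed level was 146306 ± 29016, 95895 ± 47309 and 73427 ± 8945 TPM in SCI7, OVX2_SCI7 and OVX8_SCI7 (SD, n = 4 each). None of the 13 was called in OVX2_SCI7 (0.0% of all genes). These transcripts have a GC content of 31.9 to 41.1%, and their median difference was -0.30 with the offset.

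Assembly factors outside the rule were called at rates near those of all genes. Of 37 such factors of complexes I to V, 4 were higher in OVX8_SCI7 (Sdhaf1, Surf1, Sco2 and Cox10) and 6 lower (Sdhaf3, Lyrm7, Ttc19, Coa5, Pet117 and Tmem70), or 10.8 and 16.2% against 11.9 and 15.6% of all genes, with a median of 0.035. Pet117, an assembly factor of complex IV, had 44, 11, 17 and 38 counts in SCI7, 5, 0, 3 and 0 in OVX2_SCI7 and 0, 0, 0 and 1 in OVX8_SCI7, without overlap between SCI7 and either other group. Cyc1, the cytochrome of complex III, was higher, at 68.7 ± 8.15 CPM in SCI7 and 93.1 ± 15.0 CPM in OVX8_SCI7 (SD, n = 4; adjusted p = 0.0399), and Cycs, cytochrome c itself, had 85.3 ± 18.5 and 56.1 ± 11.4 CPM and did not pass (adjusted p = 0.0693). Of 14 citrate cycle genes, Mdh2 was higher and Dld lower, 7.14% in each direction.

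Of 13 genes that control nuclear respiratory genes or mitochondrial transcription, 3 were higher in OVX8_SCI7 and 3 lower. These were 23.1% in each direction, against 11.9% higher and 15.6% lower over all genes. Esrra, an orphan receptor that activates respiratory genes, had 19.9 ± 1.29 CPM in SCI7 and 40.5 ± 9.57 CPM in OVX8_SCI7 (SD, n = 4; adjusted p = 0.0143). Ppargc1b, a coactivator, and Polrmt, the mitochondrial RNA polymerase, were also higher. Gabpa and Gabpb1, the subunits of an ETS-family activator, were lower, Gabpa with 67.9 ± 9.10 and 39.3 ± 8.61 CPM (adjusted p = 0.0161), and so was Tfb2m, a mitochondrial transcription factor. Ppargc1a, the best known coactivator of these genes, had 38.9 ± 14.2 and 18.1 ± 3.61 CPM and did not pass (adjusted p = 0.0925). The 3 higher genes have a GC content of 58.5 to 62.3% and the 3 lower ones 42.5 to 45.2%. With the offset none of the 13 passed (0.0% of all genes). Of 8 microglial and macrophage genes, 3 were higher and 1 lower in OVX8_SCI7, or 37.5 and 12.5% against 11.9 and 15.6% of all genes. The 8 had summed levels of 938 to 4884 CPM in SCI7, 1856 to 11888 CPM in OVX2_SCI7 and 6092 to 8817 CPM in OVX8_SCI7. Their part in the members' differences was not tested.

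Motifs of such activators were looked for in promoters, since NRF1, ETS-family factors and YY1 are known to bind promoters of respiratory genes. RefSeq windows of 300 bases, 250 before and 50 after a start site (build GRCm38.p6), matched 76 of the member genes. The NRF1 motif, GCGCA then any base then GCGC on either strand, was in a window of 19 of the 76, or 25.0%, against 7.17% of 17492 protein-coding genes. The ETS motif CCGGAAG was in 23.7% against 12.9%, and the YY1 motif AAGATGGCG in 10.5% against 2.14%, both also on either strand. The ETS and YY1 motifs can overlap at the bases AAG, and each motif was counted alone. By direction, the NRF1 motif was in 3 of the 10 matched members called higher, 1 of the 3 called lower and 15 of the 61 that were tested and not called. Of these called members, 3 have a match wholly before a start site, printed here 5′ to 3′ on the gene's strand with the motif in capitals, because they stand in front of genes of both directions.
Ndufb4 (chr16:37654369-37654428, minus strand): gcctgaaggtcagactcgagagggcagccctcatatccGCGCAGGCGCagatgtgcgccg
Cox6a1 (chr5:115349041-115349100, minus strand): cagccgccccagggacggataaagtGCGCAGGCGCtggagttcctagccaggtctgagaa
Ndufaf4 (chr4:24897945-24898004, plus strand): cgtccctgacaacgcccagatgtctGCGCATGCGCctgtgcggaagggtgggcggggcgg

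In Ndufb4 the motif lies 12 bases from the annotated start, in Cox6a1 107 and in Ndufaf4 103. Cox6a1 and Ndufb4 were higher and Ndufaf4 lower in OVX8_SCI7, so these members share the letters and not the direction. A match is a description of sequence, and binding was not measured here.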

How the data were processed

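Bulk paired-end RNA-seq of 12 libraries (4 each in SCI7, OVX2_SCI7 and OVX8_SCI7) was used. The authors deposited gene-level expected counts, already rounded to whole numbers, together with TPM and FPKM; fastp 0.23.4, HISAT2 2.2.1, RSEM 1.3.3, DESeq2 1.42.0, edgeR and limma, with build GRCm39, are named per the submitters' processing notes. The TPM values deposited by the authors scale counts by effective length and library, and the FPKM values deposited by the authors scale them by length and depth. The kit, the RNA selection and the strandedness are not given in the sources used here. A further 9 value columns were equal to group means within rounding and were not used. The 525 genes without a symbol held 0.0786 to 0.158% of counts.

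Counts were fitted over all 12 libraries with edgeR 4.0.16 in R 4.3.3 (TMM scaling, filterByExpr by group, robust quasi-likelihood F-test), and p-values were adjusted by Benjamini-Hochberg over 17820 genes at a threshold of 0.05. The standard error is the log2 difference divided by the square root of F. DESeq2 1.42.0, limma-voom and limma-trend (limma 3.58.1, log2(TPM + 1), log2(TPM + 0.1) and log2(FPKM + 1)), other filters, a replicate block, single libraries left out, and an offset with splines of 5 degrees of freedom for GC content and length (17448 genes) were alternatives. GC content and coding sequences came from GENCODE vM21 (GRCm38), which is not the build of the files and was used for sequence properties and not for positions of counts. The script was tested on simulated data. Tables were handled in Python 3.11.15 with pandas 2.3.3.

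Named members are, in each class, the most abundant, the called member with the largest difference in each direction or, failing one, that with the smallest p, all of complex II, and fixed isoform families; 1 member is in the counts and is not reported here by name. Members and gene lists were chosen with earlier results of these data known. The labels call the libraries biological replicates and do not tie them to single animals, so p-values measure the spread between these libraries.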

Additional observations from a re-analysis of the deposited data

Results flagged for a closer look

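In 14 of 144 groups of 4 libraries, 1 library lay far from the other 3 by Dixon's criterion, which chance alone meets in about 1 in 20 groups. SCI7 replicate 1 was high in Uqcrb at 60.8 CPM (the others had 43.1 to 44.8), in Sdhb at 83.7 CPM against 65.5 to 67.3, in Atp5mc2 at 4.80 CPM against 2.23 to 2.62 and in Cox6a2 at 0.475 CPM against 0.109 to 0.161. SCI7 replicate 2 was low in the summed TPM of complex III, at 1331 against 1465 to 1492.

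OVX2_SCI7 replicate 1 was high in Ndufaf4, at 28.3 CPM against 12.05 to 14.65, and OVX2_SCI7 replicate 4 was high in Atp5mc1, at 119.96 CPM against 75.2 to 82.8. OVX8_SCI7 replicate 1 was high in Uqcrb at 52.4 CPM against 28.8 to 32.3, in Ndufb1 at 18.6 CPM against 10.03 to 11.04, in Cox6b2 at 4.27 CPM against 3.24 to 3.29 and in Ndufaf4 at 15.2 CPM against 13.2 to 13.3. OVX8_SCI7 replicate 4 was low in Atp5f1b at 695 CPM against 838 to 854, in Uqcrc1 at 153 CPM against 209 to 212 and in Atp5mc2 at 2.21 CPM against 5.83 to 6.24.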

How the results depend on the processing

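No member was called in OVX8_SCI7 against OVX2_SCI7 under any alternative run. The share of all genes called in the same fit is given in brackets. In OVX2_SCI7 against SCI7, where edgeR called 0, members called higher numbered 23 with DESeq2 (5.87%), 1 with limma-voom (1.6%) and 3 with a stricter filter (3.39%). They numbered 44 without OVX2_SCI7 replicates 1 and 2 (19.9%), and 0 to 34 with 1 library left out, the 34 without OVX2_SCI7 replicate 1 (17.1%). Members called lower numbered 1 with DESeq2 (4.88%) and 4 without OVX2_SCI7 replicates 1 and 2 (18.9%). With 1 library left out they numbered 0 to 5, the 5 without OVX2_SCI7 replicate 1 (17.6%). In OVX8_SCI7 against SCI7, the 12 called higher became 19 on log2(TPM + 1) (7.81%), 24 with the 8 libraries compared alone (20.4%) and 27 without OVX2_SCI7 replicates 1 and 2 (20.5%). They became 0 with the GC and length offset (0.0%), and 0 to 22 with 1 library left out. The 0 came without OVX8_SCI7 replicate 2 (0.0%) or SCI7 replicate 2 (2.77%). Without each of the other SCI7 libraries or OVX8_SCI7 replicates 1 or 3 the number was 2 to 4 (2.42 to 11.4%). The 22 came without OVX8_SCI7 replicate 4 (11.6%) and 20 without OVX2_SCI7 replicate 1 (17.3%). The 3 called lower became 1 with no filter (5.18%), 5 on log2(TPM + 1) (9.03%) and 5 on log2(TPM + 0.1) (8.57%). They became 6 with the 8 libraries alone (22.5%) and 6 without OVX2_SCI7 replicates 1 and 2 (21.4%). With the offset they became 0 (0.0%), and with 1 library left out 0 to 6, the 6 without OVX2_SCI7 replicate 1 (19.9%). The 7 of the joint test became 19 with DESeq2 (15.1%), 3 with no filter (4.11%), 45 without OVX2_SCI7 replicates 1 and 2 (41.1%) and 0 with the offset (0.0%). With 1 library left out they became 0 to 28, the 28 without OVX2_SCI7 replicate 1 (33.5%). The share of all genes called thus moved too. In the main fit it was 11.9% higher and 15.6% lower in OVX8_SCI7, 0.0% in OVX2_SCI7 and 14.8% in the joint test. The cause of these changes was not tested. Of the 15 called members, DESeq2 also called all 15, limma-voom 13 and log2(TPM + 1) 11.

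Not every same-numbered pair of libraries deviated together, so the replicate numbers were not taken as pairs: the correlation was over 0.1 for 1 of 4 numbers between SCI7 and OVX2_SCI7 (-0.63 to 0.50), for 1 of 4 between OVX2_SCI7 and OVX8_SCI7 (-0.43 to 0.40) and for 3 of 4 between SCI7 and OVX8_SCI7 (-0.13 to 0.37). With a replicate block, 3 members were higher (7.22% of all genes) and 3 lower (11.8%) in OVX8_SCI7, 6 of the 15 called members passed, and 0 passed the joint test (0.0%). With the block and the offset together, 0 were higher in OVX8_SCI7 (0.0% of all genes), 0 lower (0.00561%) and 0 passed the joint test (0.0%). With the offset the sign turned in 25 of the 92 members in OVX8_SCI7 (1 of the 15 called, Ndufs7) and in 13 in OVX2_SCI7. Among the members described with a fold change, it turned in OVX8_SCI7 for Ndufs7 (-0.088 with the offset, -0.087 with block and offset), Ndufv1 (-0.18 and -0.17) and Atp5mk (0.25 and 0.24). It also turned for Atp5mj (0.46 on log2(TPM + 1), 0.46 on log2(TPM + 0.1), 0.56 on log2(FPKM + 1)) and Atp5mk (0.38, 0.38 and 0.48). In OVX2_SCI7 it turned for Ndufv2 (0.032 with the offset, 0.037 with block and offset) and Ndufv1 (-0.0071 and -0.0073). Cox6a2, with 2 to 38 counts a library, is the called member most limited by depth. The summed CPM was chosen after seeing the data.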

Other observations

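The effective length behind the TPM was also set beside that of other short genes. Among 473 other protein-coding genes with transcripts under 600 bases, the median relative length was 0.438 ± 0.0108, 0.430 ± 0.00307 and 0.433 ± 0.0216 in SCI7, OVX2_SCI7 and OVX8_SCI7, against 0.139 ± 0.00478, 0.113 ± 0.0127 and 0.111 ± 0.00895 in the 33 short members (SD, n = 4 libraries each). Of all members tested, 13.04% had an effective length that differed by more than 0.5 on the log2 scale between OVX8_SCI7 and SCI7, against 2.96% of protein-coding genes tested. Neither comparison was matched on effective length, which was smaller in the short members than in the other short genes. An equal shift in length is larger on the log2 scale where the length is small. Whether the members differed from genes of their own effective length was not tested.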
